A study of Saccharomyces cerevisiae with 109 samples.

Results

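Deletion of RPD3 was compared in yeast cells that already lacked both Msn2p and Msn4p, so that what Rpd3p did to the H2O2 response could be measured without these activators. The comparison used the 3 arrays of the msn2Δ msn4Δ rpd3Δ strain and the 3 arrays of the msn2Δ msn4Δ strain after 30 min of H2O2, chosen by their sample titles, which are 6 of the 109 arrays of the series. Each 2-colour array set the RNA of Saccharomyces cerevisiae cells after 0.4 mM H2O2 against the RNA of the same strain before treatment. A value is taken to be the log2 ratio of stressed over unstressed cells, an inferred direction, where a negative value is repression and a positive value is induction. Below, a difference between strains is the mean log2 ratio of the triple deletion minus that of the double deletion, and it measures a changed response, not a changed level.

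The cells of these strains were MATa haploids of the BY4741 background, which carries deletions in HIS3, LEU2, MET15 and URA3, and they grew in rich YPD medium at 30°C. The double deletion had MSN2 replaced by KANMX and MSN4 by URA3, and the triple deletion had RPD3 replaced by LEU2 in addition. For comparison, 8 arrays of wild-type cells and 3 arrays of a single rpd3Δ strain (RPD3 replaced by KANMX) after the same treatment were used. The spread of each gene was estimated with these and with further H2O2 arrays. They were of pho23Δ, rco1Δ, ume6Δ and histone mutant H4KQ cells and of NSY429, another strain that the sample titles mark as wild type. In the main fit these further arrays otherwise count only in the choice of genes tested. The double and triple deletion thus also differ in having a LEU2 gene. The methods describe the single time points as done in triplicate, and the study calls the wild-type and rpd3Δ arrays biological replicates. For the double and triple deletions no source used here says that the cultures were separate, so the spread between their arrays may be technical. The p-values rest on the spread within strains, pooled over all strains in the fit, and not on the arrays of the double and triple deletions alone. The methods state that the single rpd3Δ strain grows more slowly than wild type. A direct comparison of the unstressed double and triple deletions was not analysed here.

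Rpd3p is a histone deacetylase that works in a large complex, Rpd3L, and a small one, Rpd3S. Msn2p and Msn4p are zinc-finger activators that enter the nucleus under stress and induce many genes of the environmental stress response, in which yeast cells under many kinds of stress induce defence genes (iESR genes) and repress genes for ribosomal proteins (RP genes) and for ribosome assembly and RNA processing (PS genes). H2O2 also activates Yap1p and Hsf1p, which act on oxidant-defence and chaperone genes.

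Between 4840 and 5713 genes were measured per double-deletion array and between 4905 and 5711 per triple-deletion array. The standard deviation of the log2 ratios over genes was 1.01 to 1.18 on the double-deletion arrays, 0.756 to 0.971 on the triple-deletion arrays, 0.991 to 1.44 in wild type and 0.846 to 1.03 in rpd3Δ, so the triple-deletion arrays had the narrower spread. On triple-deletion replicate 3 the dyes ran the other way from the other 5 arrays. It still correlated with each of them across genes, with r from 0.612 to 0.892, so no array was turned. Double-deletion replicate 1 correlated more closely with triple-deletion replicate 2 (r = 0.775) than with double-deletion replicate 3 (r = 0.651). LEU2 was measured on 3 of 3 triple-deletion arrays and on none of the 3 double-deletion arrays. Other markers did not follow the stated genotypes in this way. URA3, which replaces MSN4 in both strains, was measured on 0 double-deletion arrays and 1 triple-deletion array. Of genes deleted in both strains, MET17 (MET15) was measured on 0 double-deletion and 2 triple-deletion arrays, and HIS3 on all 6. RPD3 was measured on 3 of 3 double-deletion arrays and on 2 of 3 triple-deletion arrays, MSN2 on 1 of 3 arrays of each strain and MSN4 on all 6. A ratio within a strain cannot show that a transcript is absent, so the strains are named by their labels. Of genes specific to MATa cells, MFA1, MFA2 and AGA2 were measured on all 6 arrays, and STE3, specific to MATalpha cells, on 2 double-deletion arrays and on 0 triple-deletion arrays. Of 10 listed genes specific to 1 mating type, 7 were tested between the strains and none was called. The tested genes are not all MATa-specific, so which markers were measured does not tell the mating type.

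In cells without Msn2/4p, part of the H2O2 response was weaker in the strain that also lacked Rpd3p. This held for some repressed and some induced genes, but not for all groups of them. Of 5054 genes tested with limma over all strains at 30 min of H2O2, 469 (9.28%) differed between triple and double deletion at an adjusted p under 0.05. Of these, 317 (6.27%) were higher in the triple deletion and 152 (3.01%) were lower. Counts for gene lists below are to be read beside these shares. The count rested on single arrays, being 242 without double-deletion replicate 2, 195 without triple-deletion replicate 1 and 275 without triple-deletion replicate 3. It was 215 with only the 6 arrays of both strains in the fit. The median 95% confidence interval of a difference was ± 0.61 log2 units, so small differences were not detectable with this number of arrays.

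The 317 higher genes were mostly genes that the double deletion repressed. Their mean ratio was negative in the double deletion for 298 of them, and the median over the genes was -1.18 in the double deletion and 0.08 in the triple deletion. The median difference was 1.22, or 2.33-fold, and 216 genes differed by more than 2-fold. In the triple deletion the ratio of 144 genes had the same sign and was closer to 0, and that of 154 had the opposite sign. Among 229 of the higher genes measured on all 6 arrays, the strains did not overlap for 224, where 14.4% of 3542 tested genes measured on all 6 arrays were higher without overlap. The higher genes were chosen by their difference on these same arrays, so this separation follows largely from the choice.

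The 152 lower genes were mostly genes that the double deletion induced. Their mean ratio was positive in the double deletion for 146, with medians of 1.03 in the double deletion and 0.05 in the triple deletion. The median difference was -1.03, or 2.04-fold, and 82 genes differed by more than 2-fold. The strains did not overlap for 107 of 120 such genes measured on all 6 arrays, against 12.5% of all genes so measured, which again follows largely from the choice. The other 6 lower genes, YDR157W, ERG28, ICY1, RAS2, HEM15 and ALD6, named here because they are the exceptions, had a negative ratio in the double deletion. Their ratio was more negative still in the triple deletion, which follows from the call as lower.

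The wild-type arrays, which do not enter this difference, were also used to choose genes, and the differences ran the same way. Of 835 genes that wild type repressed more than 2-fold, 197 (23.6%) were higher in the triple deletion and 2 (0.24%) were lower. Their median log2 ratio was -1.76 in wild type, -1.42 in the double deletion and -0.77 in the triple deletion, and 626 of them passed 2-fold repression in the double deletion but 354 in the triple deletion. Of 679 genes that wild type induced more than 2-fold, 73 (10.8%) were lower in the triple deletion and 5 (0.736%) were higher, with medians of 1.58 in wild type, 1.19 in the double deletion and 0.68 in the triple deletion. Of the 3540 genes within 2-fold in wild type, 115 (3.25%) were higher and 77 (2.18%) were lower.

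**Figure D1:**
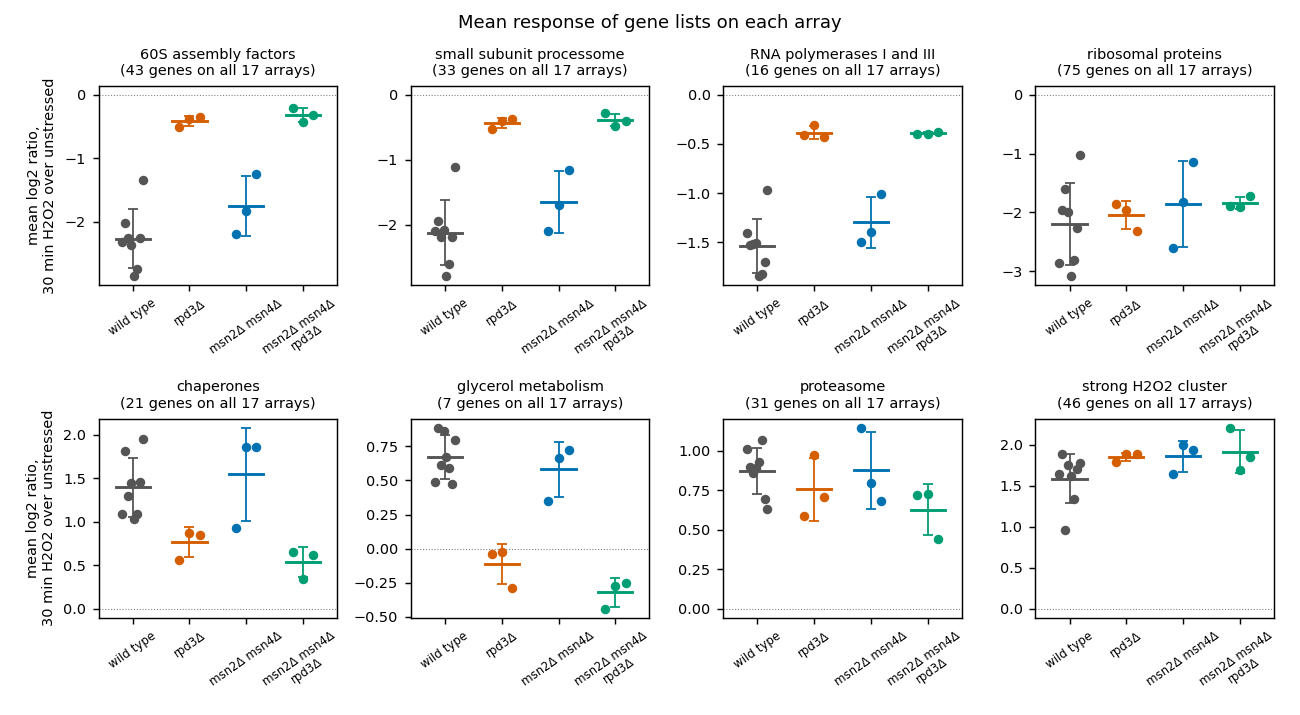
Mean log2 ratio of stressed over unstressed cells on each array, in 4 strains, for gene lists, over the genes of each list that all 17 arrays measured. Each point is 1 array, each horizontal line is the mean of a strain and the whiskers are 1 SD. For 60S assembly factors the 3 triple-deletion arrays lie between -0.43 and -0.21 and the 3 double-deletion arrays between -2.19 and -1.25, whereas for RP genes the triple-deletion arrays lie within the range of the double-deletion arrays.

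Genes for assembly of the large ribosomal subunit lost most of their repression. Of 62 tested genes for 60S assembly factors, 30 were higher in the triple deletion, none was lower, and the median difference was 1.39, where the median over all tested genes was -0.04. The mean ratio over the list was -2.19, -1.83 and -1.25 on the double-deletion arrays, and -0.21, -0.43 and -0.32 on the triple-deletion arrays, so the strains did not overlap. RSA4, an assembly factor that is a substrate of the Rea1p remodelling ATPase, had log2 ratios of -2.85, -3.44 and -1.98 in the double deletion and 0.00, -0.45 and 0.13 in the triple deletion. It was repressed on all 3 double-deletion arrays and close to unchanged in the triple deletion, with a difference of 2.65 ± 0.50 (SE) and an adjusted p of 0.00185. MAK16, which acts early in 60S assembly, had ratios of -3.13, -3.81 and -2.77 in the double deletion and -0.50, -0.66 and -0.69 in the triple deletion, a difference of 2.62 ± 0.48 (adjusted p = 0.00163). NOG1, a nucleolar GTPase of the pre-60S particle, differed by 2.21 ± 0.50 (adjusted p = 0.00666), but repression remained in the triple deletion at -1.06, -1.25 and -1.23. RLP24, which is related to a ribosomal protein and holds its place in the early particle, differed by 2.10 ± 0.42 (adjusted p = 0.00252). The number of higher 60S assembly genes was 14, 17 and 29 without double-deletion replicate 1, 2 and 3, and 12, 21 and 20 without triple-deletion replicate 1, 2 and 3.

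The small subunit processome, the large nucleolar particle that processes the precursor of 18S rRNA, followed the same course. Of 53 tested members, 29 were higher in the triple deletion and none was lower, and the difference was positive for all 53, with a median of 1.45. The mean over the list was -2.10, -1.70 and -1.16 on the double-deletion arrays and -0.29, -0.48 and -0.40 on the triple-deletion arrays. UTP15, a subunit that also supports rDNA transcription, had ratios of -2.29, -3.0 and -2.06 in the double deletion and -0.31, -0.68 and -0.05 in the triple deletion, with a difference of 2.11 ± 0.43 (adjusted p = 0.00303). FAF1, which is required for 40S subunit formation, had ratios of -2.56, -2.82 and -1.21 in the double deletion and of 0.00, 0.06 and 0.10 in the triple deletion, so that almost no repression was left (difference 2.25 ± 0.57, adjusted p = 0.0132). IMP3, EMG1, RCL1 and FAL1, each measured on 4 or 5 of the 6 arrays, were higher by 2.39, 2.34, 2.30 and 2.33. FAL1, a helicase of the DEAD-box family, was repressed at -1.43 and -0.42 on 2 double-deletion arrays and induced at 1.78, 0.67 and 1.75 on the triple-deletion arrays. The number of higher genes fell to 10, 20 and 21 without double-deletion replicate 1, 2 and 3, and to 10, 21 and 15 without triple-deletion replicate 1, 2 and 3.

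Box H/ACA particles guide the pseudouridylation of rRNA. Of 5 tested members 2 were higher (40%, against 6.27% of all tested genes). They were NHP2 (1.62 ± 0.47, adjusted p = 0.0268), a core protein, and SHQ1 (1.57 ± 0.33, adjusted p = 0.00382), an assembly chaperone. The pseudouridine synthase CBF5 had a difference of 1.59 ± 0.59 and NAF1 of 1.06 ± 0.38, without passing the test (adjusted p = 0.091 and 0.0824). GAR1, another core protein, had ratios of -3.35, -2.56 and -0.87 in the double deletion and -0.95, -1.13 and -0.97 in the triple deletion, so the strains overlapped at double-deletion replicate 3 (difference 1.24 ± 0.63, adjusted p = 0.245). With any 1 array other than double-deletion replicate 3 left out, 1 of these genes was called.

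Genes of RNA polymerases I and III, which make rRNA and tRNA, were less repressed as well. Of 31 tested genes, 9 were higher and none lower, and the median difference was 0.87. The list means were -1.49, -1.40 and -1.0 on the double-deletion arrays, all below the -0.40, -0.40 and -0.38 of the triple-deletion arrays. RPA34, a subunit of polymerase I, had ratios of -3.62, -3.16 and -2.52 in the double deletion and -0.53, -0.76 and -0.86 in the triple deletion, a difference of 2.38 ± 0.43 or 5.22-fold (adjusted p = 0.0012). RPC19, which both polymerases share, was higher by 1.94, and the polymerase III subunits RPC37 and RPC82 by 1.41 and 1.40. The number of higher genes was 6 without double-deletion replicate 2 and 6, 5 and 6 without triple-deletion replicate 1, 2 and 3. With arrays scaled to one spread, the median differences were 1.15 for the 60S assembly genes, 1.30 for the processome and 0.63 for the polymerases, all in the same direction.

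Of the 12 genes with the largest positive differences on all 6 arrays, those outside the assembly and polymerase lists were AIR1, TRF5, YPR074W-A, ATC1 and RRT14. AIR1, an RNA-binding subunit of the TRAMP complex that marks nuclear RNA for decay, had ratios of -2.52, -3.41 and -2.20 in the double deletion and of -0.54, -0.22 and -0.16 in the triple deletion (difference 2.41 ± 0.48, adjusted p = 0.00232). TRF5, a poly(A) polymerase of the same complex, was higher by 2.09 ± 0.50 (adjusted p = 0.00981), and its adjusted p was 0.0583 without double-deletion replicate 2. The largest difference, 3.11 ± 0.60 or 8.62-fold, was that of YPR074W-A, an open reading frame without a gene name in the table used, with ratios of -2.83, -3.06 and -3.01 in the double deletion and of 0.20, 0.05 and 0.17 in the triple deletion. ATC1, a nuclear protein, was higher by 2.43 ± 0.37 (adjusted p = 0.000253), and RRT14, whose name comes from a screen on rDNA transcription, by 2.20 ± 0.48 (adjusted p = 0.00497).

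**Figure D2:**
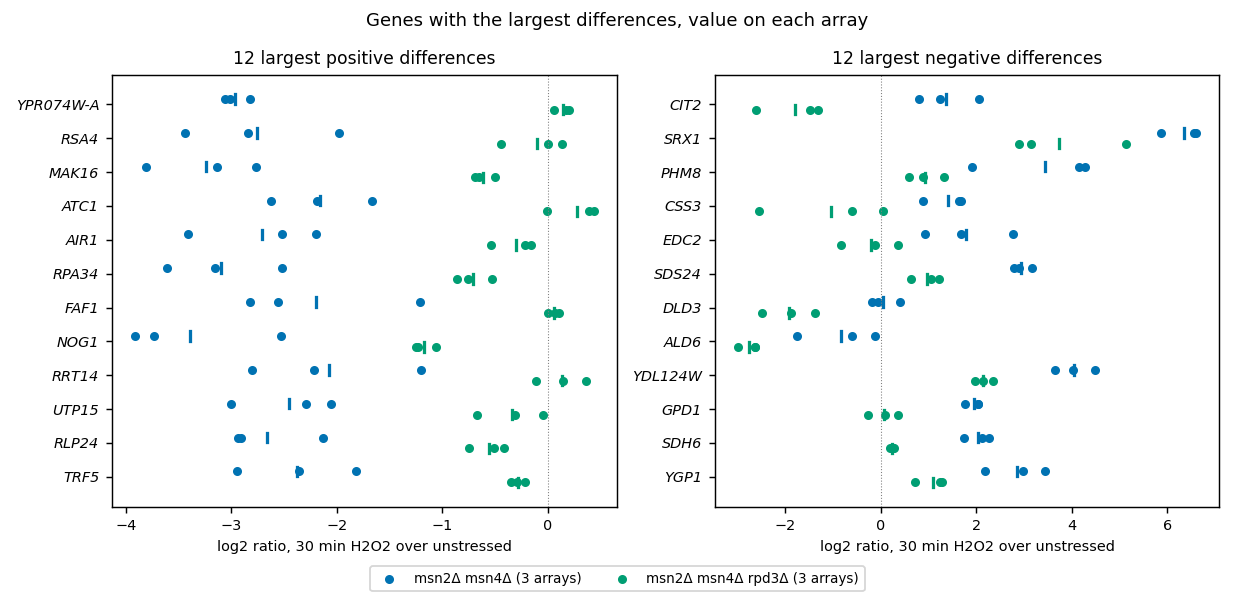
Log2 ratio of stressed over unstressed cells on each of the 3 double-deletion and 3 triple-deletion arrays for the 12 genes with the largest positive and the 12 with the largest negative difference among those called, measured on all 6 arrays and without overlap. Each point is 1 array and each vertical tick is the mean of a strain. The higher genes lie closer to 0 in the triple deletion, FAF1 at 0.00 to 0.10, and among the lower genes SRX1 stayed induced at 2.89 to 5.13 and CIT2 turned to repression at -2.61 to -1.31.

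Of 8 tested genes for regulators of ribosome genes, 3 were higher in the triple deletion (37.5%, against 6.27% of all tested genes) and none was lower. The number of higher genes was 1 with only the 6 arrays fitted, 2, 2 and 1 without double-deletion replicate 1, 2 and 3, with 1 lower gene in the last of these, and 1, 2 and 3 without triple-deletion replicate 1, 2 and 3. TOD6, a repressor that binds the PAC element of ribosome assembly genes, was repressed at -1.83 and -2.35 on 2 double-deletion arrays and had ratios of -0.14, -0.14 and -0.27 in the triple deletion (difference 1.91 ± 0.42, adjusted p = 0.00522). SCH9, a nutrient-responsive kinase, was higher by 0.87 ± 0.23 (adjusted p = 0.0162) and FHL1, a transcription factor of RP genes, by 0.77 ± 0.21 (adjusted p = 0.0174). DOT6, the paralogue of TOD6, had a difference of 0.95 ± 0.32 (adjusted p = 0.0588).

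The RP genes did not share this change. None of 130 tested RP genes was called in either direction, and their median difference was -0.03. Their median ratio was -1.87 in the double deletion and -1.91 in the triple deletion. Over the 75 RP genes measured on all 17 arrays, the mean was -2.61, -1.82 and -1.14 on the double-deletion arrays and -1.89, -1.90 and -1.72 on the triple-deletion arrays, so the triple deletion lay inside the wide range of the double deletion. RPL22B and RPL40B had the smallest p-values, with differences of 1.20 ± 0.57 and -0.83 ± 0.50 and adjusted p of 0.219 and 0.347. Under scaling of every array to one spread the RP median became -0.70, under quantile normalization -0.47, and without double-deletion replicate 3 it was 0.33. In each of these settings none of the genes was called. Many RP genes have a near-identical second copy, so array values of such pairs cannot be assigned to 1 gene with certainty.

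Of 32 tested translation factors, 1 was higher (3.1%, against 6.27% of all tested genes), the eIF3 subunit NIP1 (0.90 ± 0.28, adjusted p = 0.043). The median ratio of the list was -0.99 in the double deletion and -0.72 in the triple deletion, with a median difference of 0.10 that was -0.05 with arrays scaled to one spread and -0.10 under quantile normalization. The call of NIP1 was lost with each array left out except double-deletion replicate 1, with only the 6 arrays fitted (adjusted p = 0.0616) and under all scalings tried (adjusted p = 0.0668 to 0.124). TIF4631, which encodes eIF4G, had a difference of 0.73 ± 0.32 (adjusted p = 0.173).

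The authors' own lists of PS genes, graded by their dependence on Rpd3p, were drawn up on the arrays of this series, so their direction is not independent evidence. Of 394 tested PS genes 124 were higher in the triple deletion and none was lower. These made up 39.1% of all higher calls, and PS genes were 7.80% of the genes tested. Among genes listed as heavily dependent 32 of 47 were higher, with medians of -1.77 in the double deletion and -0.13 in the triple deletion. Among genes of intermediate dependence 90 of 281 were higher, with a median difference of 0.82, and among genes of weak dependence 2 of 66, with a median of -0.03. The number of higher PS genes was 72, 74 and 107 without double-deletion replicate 1, 2 and 3, and 56, 91 and 77 without triple-deletion replicate 1, 2 and 3.

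**Figure D3:**
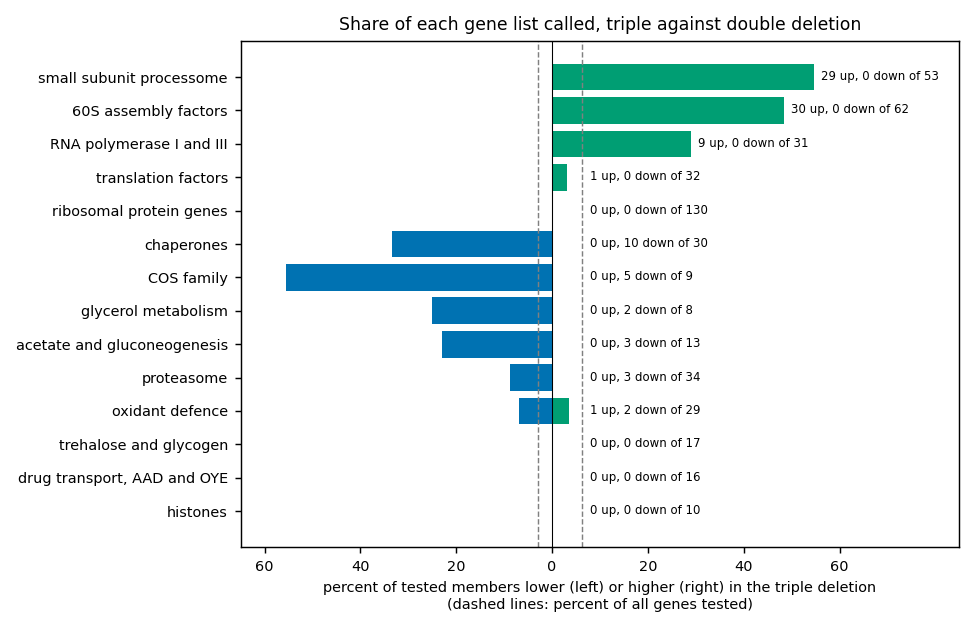
Percent of the tested members of each gene list that were called lower (left) or higher (right) in the triple deletion than in the double deletion. Dashed lines mark the shares over all genes tested, 3.01% lower and 6.27% higher. The ribosome assembly and polymerase lists lie on the right with no lower member, the chaperone and COS lists on the left with no higher member, and the RP list is empty on both sides.

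On the induced side, chaperone genes lost part of their induction. Of 30 tested chaperone genes 10 were lower in the triple deletion and none was higher. They are HSP42, HSP78, HSP104, HSP82, HSC82, HSP60, SSA1, SSA2, SSE2 and MDJ1, which cover the small heat shock, disaggregase, Hsp90, Hsp70 and mitochondrial families. SSA1 with SSA2, and HSP82 with HSC82, are near-identical pairs whose values may mix. The median ratio of the list was 0.97 in the double deletion and 0.26 in the triple deletion. The mean over members on all arrays was 0.93, 1.86 and 1.86 on the double-deletion arrays and 0.66, 0.34 and 0.62 on the triple-deletion arrays, without overlap. HSP104, the disaggregase, had ratios of 2.52, 4.31 and 3.75 in the double deletion and of 2.27, 1.26 and 2.19 in the triple deletion (difference -1.62 ± 0.41, adjusted p = 0.0118). HSP42, a small heat shock protein, had the largest difference of the list at -2.72 ± 0.67 (adjusted p = 0.0111), but with ratios of 3.13, 6.31 and 7.02 against 3.33, 1.87 and 3.11 the strains overlapped at double-deletion replicate 1. The number of lower chaperone genes was 4 with only the 6 arrays of both strains in the fit, 15, 3 and 7 without double-deletion replicate 1, 2 and 3, and 6, 3 and 7 without triple-deletion replicate 1, 2 and 3.

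Genes for glycerol and acetate metabolism held some of the strongest losses. GPD1, the glycerol 3-phosphate dehydrogenase of the osmotic stress response, was induced at 2.04, 1.76 and 2.03 in the double deletion and was at -0.27, 0.35 and 0.09 in the triple deletion. Its induction was thus no longer seen, with a difference of -1.89 ± 0.31 (adjusted p = 0.000402). GPP2, the phosphatase of the next step, changed from 1.45, 0.59 and 0.87 to -1.06, -0.31 and -0.76 (difference -1.68 ± 0.37, adjusted p = 0.00497). These were the 2 called of 8 tested glycerol genes (25% lower, against 3.01% of all tested genes). The median difference of these 8 was -0.81, and 4 were called without double-deletion replicate 1. Of 13 tested genes of acetate metabolism and gluconeogenesis 3 were lower, with a median difference of -0.49. CIT2, the peroxisomal citrate synthase, was induced at 0.81, 1.24 and 2.05 in the double deletion and repressed at -2.61, -1.31 and -1.49 in the triple deletion. At -3.17 ± 0.62, or 8.97-fold (adjusted p = 0.0023), this was the largest negative difference. MDH2, the cytosolic malate dehydrogenase of gluconeogenesis, differed by -1.66 ± 0.31 (adjusted p = 0.00161), with ratios of 1.44, 2.01 and 2.50 against 0.30, 0.07 and 0.58. ALD6, the main cytosolic acetaldehyde dehydrogenase, was at -0.12, -1.75 and -0.60 in the double deletion and at -3.0, -2.63 and -2.64 in the triple deletion (difference -1.93 ± 0.56, adjusted p = 0.0268), a call that was lost in 5 of the 6 fits with 1 array left out.

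Of 29 tested oxidant-defence genes, 2 were lower (6.90%, against 3.01% of all tested genes) and 1 was higher (3.45%, against 6.27%). The median ratio was 1.48 in the double deletion and 1.30 in the triple deletion. The median difference of -0.29 turned to 0.25 with arrays scaled to one spread and to 0.05 under quantile normalization. The number of lower genes was 1, 3 and 3 without double-deletion replicate 1, 2 and 3, and 1 without any of the triple-deletion replicates. SRX1, the sulfiredoxin that repairs overoxidised peroxiredoxin, was lower by 2.62 ± 0.61 on the log2 scale (adjusted p = 0.00745), with ratios of 5.87, 6.56 and 6.61 in the double deletion and of 5.13, 2.89 and 3.15 in the triple deletion. It therefore remained strongly induced on every array, and with arrays scaled to one spread its difference was -1.17 (adjusted p = 0.371). TRR2, the mitochondrial thioredoxin reductase, was lower by 0.57 ± 0.18 on the log2 scale (adjusted p = 0.0475), a call that was kept without double-deletion replicate 3 and lost with any other array left out. GPX2, a phospholipid hydroperoxide glutathione peroxidase, went the other way, from 3.88, 3.96 and 3.94 in the double deletion to 5.62, 4.94 and 4.59 in the triple deletion (difference 1.13 ± 0.27, adjusted p = 0.00968), where the adjusted p was 0.0883 without triple-deletion replicate 1. TSA2, a peroxiredoxin that is not among the tested genes because too few arrays of other strains measured it, had ratios of 6.33, 5.29 and 4.24 in the double deletion and of 6.24, 6.08 and 4.28 in the triple deletion, with full overlap. None of 16 tested genes for drug transport, aryl-alcohol dehydrogenases and old yellow enzymes was called, and their median ratio was 1.69 in the double deletion and 1.84 in the triple deletion.

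GPX2 was 1 of 19 higher genes that the double deletion already induced. In all 19 the triple deletion had the stronger induction, which follows from how they were chosen. YDL218W, of unknown function, rose from 2.29 and 2.81 on 2 double-deletion arrays to 5.60, 5.11 and 4.41 (difference 2.50 ± 0.56, adjusted p = 0.0067). YFL057C, an aryl-alcohol dehydrogenase-like open reading frame with close relatives, was higher by 1.61 ± 0.45 (adjusted p = 0.0242). MTC4, of unknown function, had ratios of 0.92, 1.18 and 0.75 in the double deletion and of 2.70, 2.46 and 2.24 in the triple deletion (difference 1.52 ± 0.29, adjusted p = 0.00188). The authors' cluster of genes that H2O2 induces most strongly had 4 higher (5.80%, against 6.27% of all tested genes) and 3 lower (4.35%, against 3.01%) of 69 tested. Its median difference was 0.03. This balance depended on scaling, since 15 of these genes were higher and none was lower when arrays were scaled to one spread (median 0.46), and 10 were higher and 1 was lower under quantile normalization (median 0.48).

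Further genes with large negative differences had various roles. SDH6, an assembly factor of succinate dehydrogenase, had the smallest adjusted p (3.39e-06), with ratios of 1.74, 2.12 and 2.26 in the double deletion and of 0.19, 0.25 and 0.27 in the triple deletion (difference -1.80 ± 0.19). SDS24, which is involved in endocytosis and cell separation, differed by -1.98 ± 0.27 (adjusted p = 7.6e-05) and PNC1, the nicotinamidase, by -1.65 ± 0.34 (adjusted p = 0.00316). PHM8, a nucleotide and lysophosphatidic acid phosphatase, had ratios of 1.91, 4.27 and 4.15 in the double deletion and of 1.31, 0.58 and 0.87 in the triple deletion (difference -2.52 ± 0.51, adjusted p = 0.00303). The retrograde-regulated lactate dehydrogenase DLD3 was close to unchanged in the double deletion at -0.19, 0.41 and -0.06 and repressed in the triple deletion at -2.50, -1.39 and -1.88 (difference -1.97 ± 0.42, adjusted p = 0.00386). CSS3, whose role is not well described, was lower by 2.44 ± 0.37 on the log2 scale (adjusted p = 0.000222), with a wide spread of -2.56, -0.60 and 0.04 in the triple deletion. EDC2, which promotes mRNA decapping, was lower by 1.99 and YDL124W, a ketoreductase, by 1.90 on the same scale. Both UBI4, the stress-induced polyubiquitin gene (-1.63 ± 0.49, adjusted p = 0.0352), and ATG7, an autophagy enzyme (-1.39 ± 0.43, adjusted p = 0.0425), were lower. UBI4 kept its call without double-deletion replicate 3 and lost it with any other array left out (adjusted p = 0.0502 to 0.117). ATG7, measured on 2 triple-deletion arrays, lost its call without double-deletion replicate 2 or 3 or triple-deletion replicate 1 (adjusted p = 0.193, 0.119 and 0.0653) and could not be tested without triple-deletion replicate 2 or 3.

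Proteasome genes showed small differences. Of 34 tested, 3 were lower (8.82%, against 3.01% of all tested genes). They were the core subunits PRE10 and PRE2 and the base ATPase RPT1, with differences of -0.87, -0.56 and -0.76 and adjusted p of 0.0345, 0.0364 and 0.0188. The list means were 1.15, 0.80 and 0.68 on the double-deletion arrays and 0.72, 0.72 and 0.44 on the triple-deletion arrays, which overlap. None of the 34 was called without double-deletion replicate 1, double-deletion replicate 2 or triple-deletion replicate 3, 4 were called without double-deletion replicate 3, and 1 without triple-deletion replicate 1. The median difference of -0.25 was -0.04 with arrays scaled to one spread.

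The COS genes, a subtelomeric family of membrane proteins involved in protein sorting, were lower for 5 of 9 tested members. COS4 had ratios of 0.20, -0.10 and 0.15 in the double deletion and of -1.20, -0.65 and -0.71 in the triple deletion (difference -0.93 ± 0.17, adjusted p = 0.0018). The family members are near-identical in sequence, so their values are not independent and cannot be assigned to single genes. The number called was 3 without triple-deletion replicate 1 and 0 with only the 6 arrays of both strains in the fit. In unstressed cells the median log2 ratio of rpd3Δ over wild type was -1.95 over 8 members of this family, and its part in the difference was not tested.

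Trehalose and glycogen genes include well-known targets of Msn2/4p. None of 17 tested was called, and their median ratio was 0.62 in the double deletion and 0.24 in the triple deletion. TPS1 and TPS2, which make trehalose, had differences of -0.77 ± 0.41 and -0.89 ± 0.49 (adjusted p = 0.27 and 0.29). In wild type their median ratios were 3.17 and 2.99. None of 10 tested histone genes was called, with a median difference of -0.71. Here too scaling mattered, since 8 were lower with arrays scaled to one spread and 7 under quantile normalization.

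The authors' classes of genes by their dependence on Rpd3p and Msn2/4p were made with these 6 arrays among others, so their counts are only a description. The lists used held 101 genes (equally dependent), 42 (more on Msn2/4p) and 65 (additive). The study's figure gives larger classes under these descriptions. Among genes listed as needing Rpd3p alone 39 of 197 were lower, with a median difference of -0.60. This number was 17 with only the 6 arrays fitted, 20 without double-deletion replicate 2, and 20, 21 and 22 without triple-deletion replicate 1, 2 and 3. Among genes of additive dependence 10 of 56 were lower (median -0.78), and 6, 4 and 9 were lower without double-deletion replicate 1, 2 and 3 and 4, 7 and 4 without triple-deletion replicate 1, 2 and 3. Among genes equally dependent on both, 7 of 85 were lower (median -0.39), and 3 were lower without double-deletion replicate 1, double-deletion replicate 2, triple-deletion replicate 1 or triple-deletion replicate 3. Among genes more dependent on Msn2/4p than on Rpd3p, 1 of 31 was higher (YDL218W), none was lower and the median was -0.41. YDL218W could not be tested without double-deletion replicate 1 or 3. Among those that need Msn2/4p only, none of 27 was called (median -0.08). In the authors' cluster of iESR genes 5 of 22 were lower, namely SSE2, HSP104, HSP78, HOR7 and YDL159W-A. The cluster lists 25 genes, a small part of the iESR genes that the study describes. The mean over that cluster was 1.90, 2.53 and 2.54 on the double-deletion arrays and 1.51, 1.08 and 1.46 on the triple-deletion arrays, and 3.55 to 4.09 in wild type. Without double-deletion replicate 1 the number was 7, without double-deletion replicate 2 it was 0 and without replicate 3 it was 1, and it was 1, 0 and 3 without triple-deletion replicate 1, 2 and 3.

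Of the 8 tested genes whose promoters the study assayed singly, 2 were lower. None was lower without double-deletion replicate 2 or 3 or triple-deletion replicate 1 or 2, or with arrays scaled to one spread, and 1 was lower without triple-deletion replicate 3. YGP1, a secreted glycoprotein, had ratios of 2.17, 2.98 and 3.43 in the double deletion and of 1.28, 0.72 and 1.24 in the triple deletion (difference -1.78 ± 0.51, adjusted p = 0.0245). HOR7, a small membrane protein, had ratios of 0.86, 2.58 and 3.57 against 0.73, 0.53 and 1.05, with overlap at double-deletion replicate 1 (difference -1.56 ± 0.46, adjusted p = 0.0296). YPR127W, a pyridoxal reductase-like protein, had 1.10, 1.23 and 1.44 in the double deletion and 1.42, 1.52 and 1.23 in the triple deletion, which overlap (difference 0.13 ± 0.26, adjusted p = 0.831). For UBC5 and XKS1 the differences were -0.71 and -0.79 (adjusted p = 0.298 and 0.322), and for RPL16A -0.14 ± 0.65 (adjusted p = 0.94). The stress gene DDR2 stayed strongly induced in both strains, at 4.17, 5.37 and 6.69 in the double deletion and at 6.80, 3.50 and 4.69 in the triple deletion (difference -0.41 ± 0.60, adjusted p = 0.768), a difference whose sign depended on scaling and on single arrays.

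The effect of the same deletion where Msn2/4p are present was measured on other arrays, rpd3Δ against wild type. There 1149 of 5047 genes (22.8%) were called, 694 higher (13.8%) and 455 lower (9.02%). With 8 wild-type arrays that comparison is the more precise, and its count was 721 without rpd3Δ replicate 2 and 736 without rpd3Δ replicate 3. Of the 317 genes higher in the triple deletion, 278 (87.7%) were also higher in rpd3Δ against wild type and none was lower. Of the 152 lower genes, 102 (67.1%) were also lower and none was higher. Both comparisons use the same estimate of the spread of each gene, so their calls are not fully independent. In the other direction, 278 of the 694 (40.1%) and 102 of the 455 (22.4%) were called in the triple deletion. Over the 694, the median difference was 1.03 with Msn2/4p and 0.80 without them, and over the 455 it was -0.95 and -0.62. These genes were chosen on the effect with Msn2/4p. Over the genes chosen on the effect without Msn2/4p, the median was 1.31 with and 1.22 without Msn2/4p for the 317 higher genes, and -0.77 and -1.03 for the 152 lower genes. Across the 5047 genes the effects correlated with r = 0.794, a value across genes, which are not independent replicates.

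**Figure D4:**
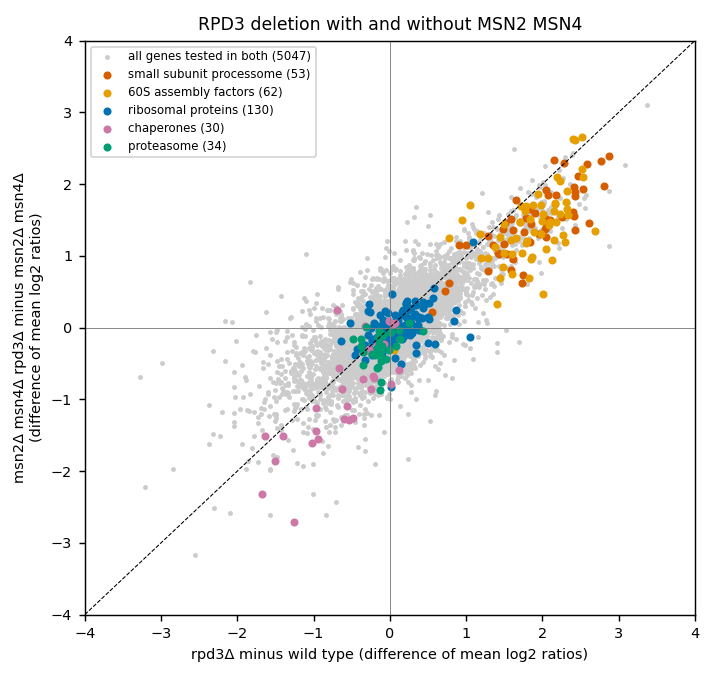
Effect of deleting RPD3 on the response of each gene where MSN2 and MSN4 are present (rpd3Δ minus wild type, horizontal axis) and where they are absent (triple minus double deletion, vertical axis), both as differences of mean log2 ratios. Each grey point is 1 of 5047 genes, members of 5 lists are coloured, and the dashed line marks equal effects. Effects correlated across genes (r = 0.794), and the 60S assembly and processome genes lie mostly below the dashed line, while RP genes lie near 0 on both axes.

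Among genes named above, the RPD3 effects in both backgrounds lay close for some and farther apart for others, and the interaction test called none of these genes. The effect was 2.65 without and 2.53 with Msn2/4p for RSA4, 2.62 and 2.41 for MAK16, 2.38 and 2.30 for RPA34, and 2.41 and 2.39 for AIR1. On the induced side it was -2.52 and -2.30 for PHM8, -1.98 and -1.89 for SDS24, -1.68 and -1.81 for GPP2 and -3.17 and -2.55 for CIT2. It was -2.44 without and -0.71 with Msn2/4p for CSS3, -2.72 and -1.26 for HSP42, -2.62 and -1.57 for SRX1, -1.65 and -0.81 for PNC1, -1.90 and -1.01 for YDL124W, -1.89 and -1.22 for GPD1, and -1.93 and -1.14 for ALD6. It was 1.91 and 2.87 for TOD6 and 2.11 and 2.47 for UTP15. The numbers of ribosome assembly and polymerase genes called were larger with Msn2/4p than without, with 58 of 62 60S assembly genes, 48 of 53 processome genes and 19 of 31 polymerase genes higher, and RP genes had none called there either. The numbers lower with and without Msn2/4p were 8 and 10 for chaperones, 0 and 3 for proteasome genes and 2 and 2 for glycerol genes, and 2 and 3 regulators of ribosome genes were higher. Over all tested genes, the shares higher were 13.8% with and 6.27% without Msn2/4p, and the shares lower were 9.02% and 3.01%. The effect without Msn2/4p minus that with them had a median of -0.44 over the 60S assembly genes and of -0.41 over the processome genes, where the median over all genes was -0.06.

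A test of the difference between the effects (an interaction term in limma) called none of 5047 genes (0%). At an unadjusted p under 0.05 there were 179 genes (3.55%), and the smallest adjusted p was 0.299. The median 95% confidence interval of this difference was ± 0.78 log2 units, and it lay within 1 log2 unit of 0 for 2265 genes (44.9%), so for the other genes a difference of 2-fold between backgrounds was not excluded by its interval. The smallest p-values belonged to MET13, VTH1 and SNZ2. MET13, a methylenetetrahydrofolate reductase, had effects of 0.37 without and -1.09 with Msn2/4p (difference 1.46 ± 0.63, 95% interval, unadjusted p = 6.37e-05, adjusted p = 0.299). VTH1, a vacuolar sorting receptor relative with a near-identical paralogue, rose from -1.06, -0.16 and -0.58 in the double deletion to 1.40, 0.71 and 1.11 in the triple deletion (difference 1.68 ± 0.23, SE, adjusted p = 7.92e-05), with an effect of 0.34 with Msn2/4p (adjusted p = 0.222). SNZ2, a vitamin B6 synthesis gene of a near-identical family, was induced at 2.50, 1.91 and 2.07 in the double deletion and was at -0.36 and -0.54 on 2 triple-deletion arrays (difference -2.61 ± 0.34, adjusted p = 7.6e-05), with an effect of -0.83 with Msn2/4p. The proteasome genes PRE10, RPT1 and PRE2 had effects of -0.13, -0.11 and -0.17 with Msn2/4p, and MDH2 of -0.42 (adjusted p = 0.274). For none of these genes did the difference between backgrounds pass the adjusted threshold.

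A loss of induction can go with a raised level before stress. No array of the series given here compares the unstressed double and triple deletions, but 3 arrays compare unstressed rpd3Δ with unstressed wild type. On these, 149 of the 152 lower genes were measured on at least 2 arrays, with a median log2 ratio of 0.22 and 69.1% above 0, where over all tested genes the median was -0.01 and 49.0% were above 0. For SDS24, SDH6, PHM8 and YGP1 the unstressed ratios were 1.40, 1.19, 1.24 and 1.74, and for GPD1, ALD6 and DLD3 they were -0.11, -0.11 and -0.72. The higher genes had a median of 0.06, with 59.5% above 0. The iESR cluster, a small part of the iESR genes, had a median of 0.95 and the chaperones one of 0.02. The part of unstressed levels in the differences between triple and double deletion was not tested.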

How the data were processed

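Total RNA was labelled with 2 dyes, and the authors deposited log2 ratios, 1 column per array, each with a mean close to 0, so a change of all transcripts together cannot be seen. Background correction, normalization and the reason for empty cells are not given in the sources used here. The ratios were used as deposited, and 0 columns lacked a sample. Which channel is the numerator is not given by a heading. The positive correlation of arrays with opposite dyes shows only that the arrays share 1 orientation. That stressed cells are the numerator was inferred from genes known to be repressed or induced by stress. Of 6297 open reading frames 5832 were named through RefSeq. No sequence is shown.

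One mean per strain was fitted to the 33 arrays of 9 strains at 30 min of H2O2 with limma 3.58.1 in R 4.3.3 (wild type, rpd3Δ, pho23Δ, rco1Δ, ume6Δ, NSY429, H4KQ, msn2Δ msn4Δ and msn2Δ msn4Δ rpd3Δ), so that all strains share the estimate of the spread of a gene. A gene was tested when measured on at least 80% of these arrays and on at least 2 arrays each of the double and the triple deletion. For rpd3Δ against wild type and for the interaction, at least 2 arrays each of wild type and rpd3Δ were required in addition. Without the 80% filter and without the need for values in the double and triple deletions, 1277 of 5826 genes were called in rpd3Δ against wild type. P-values were adjusted over all genes tested (Benjamini-Hochberg), and a gene was called at an adjusted p under 0.05. Tables and figures were made with Python 3.11.15, numpy 2.4.6, pandas 2.3.3 and matplotlib 3.10.9. Gene lists were described by counts and medians only.

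Single genes were named by a rule: the 12 genes with the largest difference in each direction among called genes measured on all 6 arrays without overlap, up to 4 called members of a list and up to 2 uncalled ones where fewer than 4 were called, the 3 smallest p-values of the interaction, the deleted genes and the genes with assayed promoters. Where all members of a small count are listed, they were named after their values were seen. The members, lists and tests were chosen with earlier results of these data known. RPP1, MRP8 and COS111 were taken out of lists made by name pattern after the values were seen, because their functions differ. The number of arrays limits the precision. Tested on data simulated for triple against double deletion, with 200 of 5054 genes changed, the fit recovered 45% of changes of 1 log2 unit and 91% of 2 log2 units, and 5.56% of 144 calls were false. The simulated noise was independent between genes and arrays. Real arrays share deviations, with r = 0.636 between double-deletion replicate 1 and triple-deletion replicate 2, so these shares may not hold for the real data. Alternatives were median centring, scaling to one median absolute deviation (MAD), quantile normalization, other filters, thresholds and sets of arrays, a dye covariate, a replicate block, trended robust variances and each array left out. Those for the thresholds and left-out arrays of rpd3Δ against wild type were added after the data were seen.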

Additional observations from a re-analysis of the deposited data

Results flagged for a closer look

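Among 14 list means checked over the 8 wild-type arrays, 1 array stood apart. The mean log2 ratio of PS genes on wild-type replicate 8 was -0.88, where the other 7 arrays lay between -2.05 and -1.51. The gap to its nearest neighbour was 0.537 of the whole range, above the critical 0.526, which chance exceeds in about 1 in 20 such groups. The array does not enter the difference between triple and double deletion. Without it, 1250 genes in place of 1149 were called in rpd3Δ against wild type.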

How the results depend on the processing

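No gene called between triple and double deletion changed sign in any of the 6 fits with 1 array left out or the 12 other settings. The 469 calls (317 higher and 152 lower) were 150 (109 and 41) at an adjusted p under 0.01, 215 (163 and 52) with only the 6 arrays of both strains, 180 (95 and 85) of 1884 genes measured on every array, and 195 to 425 (131 to 283 higher and 64 to 142 lower) with 1 array left out. Quantile normalization gave 234 lower and 606 in all, and scaling by the MAD 554. Fewer arrays or genes enter several of these fits, and otherwise the cause was not tested. The difference of DDR2 turned to 1.22 with MAD scaling and ranged from -1.31 to 0.34 with 1 array left out (positive without double replicate 3, at 0.23, and without triple replicate 2), and that of RPL16A ranged from -0.54 to 0.26 (positive without double replicate 3). For rpd3Δ against wild type, 674 genes were called at an adjusted p under 0.01, 378 of those measured on every array, and 721 to 1250 with 1 array left out. The interaction called 0 to 1 with 1 array left out (MET13, without rpd3 replicate 1, adjusted p = 0.0186) and 1 under quantile normalization (SNZ2, adjusted p = 0.0218), and none in the other settings.

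Replicate numbers do not pair the arrays. Deviations of same-numbered arrays correlated at -0.247, -0.362 and 0.538, and only those numbered 3 matched best with their own number. Double-deletion replicate 1 matched best with triple-deletion replicate 2 (0.636), and double-deletion replicate 2 with triple-deletion replicate 1 (0.345). A block by equal replicate numbers, which does not follow these matches, gave 434 calls, 404 of them among the 469. It therefore does not remove the deviations that these arrays share, and a block by the matches was not fitted. Each strain has 3 arrays, which limits what could be detected, and the dyes are not balanced between the strains (438 calls with a dye covariate).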

Other observations

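Some called genes share a pathway that has no list above. These groups were put together after their values were seen and carry no test, and some of their members, among them CIT2, AIR1, TRF5 and RRP6, also belong to lists described above. Of 7 targets of the retrograde pathway, which signals from mitochondria to the nucleus, 6 were lower in the triple deletion, with a median ratio of 0.95 in the double deletion and -0.36 in the triple deletion. Besides CIT2 and DLD3 they were the aconitase ACO1 (-1.42), the pyruvate carboxylase PYC1 (-1.31), the isocitrate dehydrogenase subunit IDH1 (-1.08) and the mitochondrial citrate synthase CIT1 (-0.81). IDH2, the other subunit, had a difference of -0.67 and was not called (adjusted p = 0.30).

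Of 6 tested genes for diphthamide synthesis, a modification of elongation factor eEF2, 4 were higher, namely KTI11 (2.06), DPH1 (2.00), DPH2 (1.53) and JJJ3 (1.42). Of 10 genes for RNase P and RNase MRP, which process tRNA and rRNA precursors, 6 were higher, from POP1 at 1.54 to POP3 at 1.00. Of 16 genes for the exosome and the TRAMP complex 6 were higher, among them RRP4 (1.57), RRP40 (1.35) and RRP6 (1.35) besides AIR1 and TRF5. Of 8 genes for cytosolic iron-sulfur protein assembly, CFD1 (1.16) and CIA1 (0.84) were higher. Over all tested genes, 6.27% were higher and 3.01% were lower.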
